A study of Mus musculus with 9 samples.

Results

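The 10 genes described here encode the hypoxia-inducible factor (HIF) pathway in mouse bone-marrow-derived macrophages: the factor subunits Hif1a, Epas1 and Arnt, their regulators Vhl, Hif1an, Egln1 and Egln3, and the target genes Bnip3, Vegfa and Ddit4. They were taken by symbol, as members of the pathway, from the 22376 genes listed in the files. All 10 were among the 13728 genes that passed the filter on low values and were tested. With the PD-L1 antibody, Hif1a, Egln3, Bnip3 and Ddit4 stood at 3.62 to 7.23 times their mean levels in the other wells. Egln1, Vegfa and Arnt stood at 1.16 to 1.48 times. Epas1, Vhl and Hif1an were called in neither direction with all libraries and TMM scaling, a scaling that trims the most extreme genes. In that same fit Egln1 was called against isotype antibody wells but not against untreated wells. The calls of Arnt and Vegfa did not hold under every alternative analysis.

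Marrow of wild-type C57Bl/6 mice was cultured for 1 week in bags with 10 ng/ml macrophage colony-stimulating factor (M-CSF), the growth factor of macrophages. The M-CSF was then washed away and 50000 cells were plated per well for 48 h. There were 3 libraries of wells with an antibody against PD-L1 at 100 µg/ml (numbered 1 to 3), 3 of wells with an isotype-matched antibody, directed at no intended target, at the same concentration (4 to 6), and 3 of untreated wells (7 to 9). PD-L1 is a surface ligand of the inhibitory receptor PD-1. The oxygen level of the cultures is not given in the sources used here. Whether different wells held cells of different mice or cultures is not stated in the labels. The p-values therefore measure the spread between these samples, and that spread may be technical.

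Depth ran from 23554320 to 40116467 exonic read equivalents per library, a read number computed from the deposited coverage. Along the first principal component of all tested genes (72.0% of the variance) the libraries with the PD-L1 antibody had scores of 46.35 to 49.53, and the other 6 had scores of -30.92 to -19.83. On the second component (12.3%) untreated 7 scored -15.83, as the isotype antibody libraries did (-18.68 to -3.21), apart from untreated 8 and 9 at 22.77 and 22.5. Fold changes and counts that rest on the untreated wells are therefore also given without untreated 7. The names of the libraries give lane 4 for PD-L1 antibody 2 and lane 1 for the other 8, so lane 1 alone is the data without that library. All 11 markers of macrophages, the labelled cell type, passed the filter. Their summed level was 22870 to 27120 CPM with the PD-L1 antibody, 20420 to 23970 CPM with the isotype antibody and 18280 to 24400 CPM in untreated wells. The highest of them was Lyz2, with a mean of 12410 CPM over the libraries. Passing the filter does not by itself identify the cells, because markers of other cells passed it too. Among markers of other cells, 12 of 13 neutrophil genes passed the filter and summed to 573.8 to 741.7 CPM with the PD-L1 antibody, 864 to 1467 CPM with the isotype antibody and 687.7 to 860.1 CPM in untreated wells. The 8 dendritic cell genes summed to 403.2 to 462.4 CPM with the PD-L1 antibody, 318.8 to 536.4 CPM with the isotype antibody and 270.4 to 519.8 CPM in untreated wells, most of it from Ccr7, which activated macrophages can also express. Of 8 stromal and endothelial genes 7 passed, with sums of 58.24 to 77.79 CPM (PD-L1 antibody), 36.39 to 50.51 CPM (isotype antibody) and 56.19 to 83.64 CPM (untreated). The erythroid and mast cell genes summed to at most 28.96 CPM and the lymphocyte genes to at most 4.337 CPM in any library. The neutrophil sum was lower with the PD-L1 antibody than with the isotype antibody, without overlap, and the stromal and endothelial sum higher. The part of these cells in the results below was not tested.

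HIF is a pair of proteins, an oxygen-sensitive alpha subunit (HIF-1alpha from Hif1a or HIF-2alpha from Epas1) and a constant partner from Arnt. In oxygen, prolyl hydroxylases (from Egln1 and Egln3) mark the alpha subunit for the ubiquitin ligase that contains VHL, and an asparaginyl hydroxylase (FIH, from Hif1an) blocks its coactivator binding, so the alpha subunits are controlled mainly as proteins. In macrophages inflammatory signals also raise Hif1a transcript, and the factor drives glycolytic, angiogenic and cytokine genes even in oxygen. None of these proteins was measured here.

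HIF binds the core sequence ACGTG, and the promoters of the genes that rose most with the PD-L1 antibody are shown with that core in capitals, on either strand. Each window holds 250 bases before and 50 after the transcription start (RefSeq, GRCm38.p6), written along the gene's own strand. A match describes the letters and not binding. The first 4 are the genes with the largest rises, and Egln1 is shown for comparison with its close relative Egln3.
Hif1a promoter (chr12:73907617-73907916, plus strand): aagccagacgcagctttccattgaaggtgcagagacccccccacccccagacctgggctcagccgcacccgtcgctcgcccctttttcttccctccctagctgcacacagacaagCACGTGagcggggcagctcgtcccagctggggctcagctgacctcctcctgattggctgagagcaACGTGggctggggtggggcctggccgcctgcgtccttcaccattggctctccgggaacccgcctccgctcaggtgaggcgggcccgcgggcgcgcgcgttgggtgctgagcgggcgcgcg
Egln3 promoter (chr12:54203825-54204124, minus strand): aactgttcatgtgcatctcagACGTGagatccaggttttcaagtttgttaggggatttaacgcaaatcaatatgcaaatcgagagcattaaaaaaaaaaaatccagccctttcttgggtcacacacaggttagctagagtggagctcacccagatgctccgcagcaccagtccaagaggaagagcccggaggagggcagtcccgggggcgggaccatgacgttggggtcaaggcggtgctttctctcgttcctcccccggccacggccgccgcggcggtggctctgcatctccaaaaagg
Bnip3 promoter (chr7:138909457-138909756, minus strand): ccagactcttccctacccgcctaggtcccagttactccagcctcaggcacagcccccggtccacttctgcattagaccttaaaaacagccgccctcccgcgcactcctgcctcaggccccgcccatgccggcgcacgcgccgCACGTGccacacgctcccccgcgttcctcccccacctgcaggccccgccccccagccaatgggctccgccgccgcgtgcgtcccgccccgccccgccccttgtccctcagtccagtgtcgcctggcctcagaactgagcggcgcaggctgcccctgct
Ddit4 promoter (chr10:59951721-59952020, minus strand): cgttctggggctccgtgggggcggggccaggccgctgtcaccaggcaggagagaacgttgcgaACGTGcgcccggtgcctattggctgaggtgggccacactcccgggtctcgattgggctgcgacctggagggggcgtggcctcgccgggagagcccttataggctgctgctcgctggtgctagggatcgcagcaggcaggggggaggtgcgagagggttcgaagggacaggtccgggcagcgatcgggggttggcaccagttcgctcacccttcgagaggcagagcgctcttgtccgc
Egln1 promoter (chr8:124949205-124949504, minus strand): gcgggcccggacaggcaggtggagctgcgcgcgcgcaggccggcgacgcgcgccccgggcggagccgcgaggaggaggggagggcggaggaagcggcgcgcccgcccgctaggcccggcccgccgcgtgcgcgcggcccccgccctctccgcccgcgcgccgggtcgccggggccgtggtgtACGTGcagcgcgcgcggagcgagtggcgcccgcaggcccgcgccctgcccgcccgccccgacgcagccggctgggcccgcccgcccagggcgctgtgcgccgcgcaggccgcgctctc
The core lay 135 and 134 bases before the start (overlapping matches on opposite strands) and 70 bases before it in Hif1a, 229 bases before in Egln3, 187 before in Ddit4 and 68 before in Egln1. In Bnip3 it lay 108 and 107 bases before the start, again as overlapping matches on opposite strands. Each overlapping pair spells CACGTG, which is also the E-box that MYC and other basic helix-loop-helix proteins bind. Of the 10 genes 9 had a window in the RefSeq table, all but Epas1, and 6 of the 9 held the core, counting a second start of Vegfa with a match 211 bases before it. These 9 genes had 10 windows in all, and Vegfa held the core only in the window of its second start. Across 32851 mouse promoter windows of the same length, of 27025 genes, 19.6% held it. That share is counted per window and not per gene, so it is not on the same footing as the 6 of 9. The windows of Arnt, Vhl, Hif1an and the upstream start of Vegfa held no ACGTG on either strand, and may hold other forms of the core.

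Setting PD-L1 antibody wells against isotype antibody wells asks which transcripts of the pathway changed beyond the effect of antibody protein as such. Of the 10 genes 7 were called higher and 0 lower (limma with Benjamini-Hochberg adjustment over all genes, adjusted p under 0.05), where 36.4% of all genes tested were called, 18.2% higher and 18.2% lower. Against untreated wells 6 of 10 were called higher and 0 lower, where 42.5% of all genes tested were called, 22.0% higher and 20.5% lower. Without untreated 7 the same comparison called 7 of 10 higher and 0 lower. That fit called 6773 of all genes, 3447 higher and 3326 lower, in place of 5836 with all libraries. No gene of the 10 was lower with the PD-L1 antibody at an unadjusted p under 0.05 either. Between isotype antibody and untreated wells 0 of 10 were called by limma, edgeR or DESeq2 with all libraries, and 0.00728% of all genes tested by limma. At an unadjusted p under 0.05 (limma) 1 of the 10 was higher and 1 lower, where 12.7% of all genes tested were under that p. Without untreated 7, 3 of the 10 were called at an adjusted p under 0.05 (limma), 2 higher and 1 lower. In that fit 2294 of all genes tested were called, 1328 higher and 966 lower. In lane 1 alone (without PD-L1 antibody 2), 6 of 10 were called higher and 0 lower in each comparison of the PD-L1 antibody, with log2 fold changes of 1.80 to 2.53 for Hif1a, Egln3, Bnip3 and Ddit4. Among all genes that fit called 3947 against the isotype antibody, 2018 higher and 1929 lower. Against untreated wells it called 4755, 2504 higher and 2251 lower. The balance of calls depends on the scaling: with scaling by total reads 1566 genes were called higher and 4158 lower against the isotype antibody, in place of 2497 and 2501 with TMM, and the median of all genes moved to -0.158. On that scale 5 of the 10 genes were higher and 1, Hif1an, was lower. Against untreated wells total-read scaling called 1938 genes higher and 4088 lower, in place of 3017 and 2819 (median of all genes -0.135), and 4 of the 10 genes higher. Both comparisons of the PD-L1 antibody use the same PD-L1 antibody libraries. RNA came from whole wells, so fewer cells of a type and less RNA per cell cannot be told apart.

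**Figure D1:**
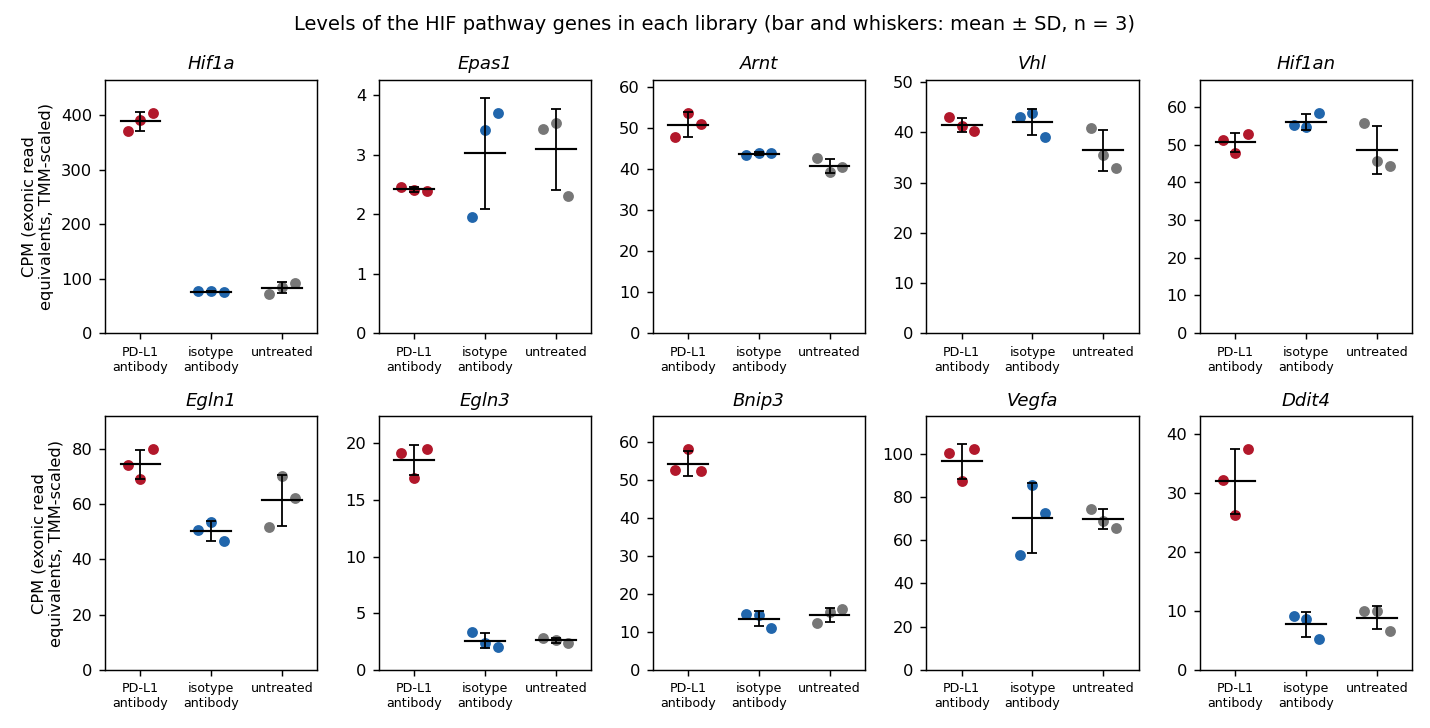
Level of each of the 10 genes in each library, in CPM on linear axes that start at 0, for PD-L1 antibody, isotype antibody and untreated wells (points are libraries, bars and whiskers mean ± SD, n = 3). Hif1a, Egln3, Bnip3 and Ddit4 show a wide gap between the PD-L1 antibody libraries and the other 6, while Epas1 and Vhl overlap between groups.

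Hif1a, the gene of the inducible alpha subunit, is on chromosome 12 (73907867 to 73947554, plus strand; positions of the transcript used match GRCm38). Its level was 370.5, 390.5 and 404.2 CPM in PD-L1 antibody libraries 1 to 3, against 77.41, 76.55 and 74.52 CPM in isotype antibody libraries 4 to 6 and 71.84, 85.14 and 91.92 CPM in untreated libraries 7 to 9. CPM stands for exonic read equivalents per 1e+06 of a library's TMM-scaled total. The lowest PD-L1 antibody library was thus over 4 times the highest of the other 6, and the 6 overlapped one another. The log2 fold change, on the log2(CPM + 1) scale, was 2.33 (SE 0.09, 95% interval 2.13 to 2.53, limma adjusted p = 2.63e-08) against the isotype antibody and 2.22 (SE 0.09, limma adjusted p = 3.21e-08) against untreated wells, or 2.12 without untreated 7. The isotype antibody against untreated wells gave -0.11 (interval -0.31 to 0.09, limma adjusted p = 0.599), and -0.21 without untreated 7 (limma adjusted p = 0.0579).

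The level of Hif1a was read over the exons of 1 of its listed transcripts. Another listed transcript starts 6543 bases further upstream, and reads lying wholly in that upstream stretch numbered 19, 19 and 16 in PD-L1 antibody wells, 0, 2 and 8 in isotype antibody wells and 10, 6 and 0 in untreated wells. They were at most 0.415% of the reads over the gene in any library (untreated 7, Wilson 95% interval 0.226 to 0.763%), and 0.104, 0.161 and 0.121% with the PD-L1 antibody. Spliced reads that reach the next exon are not in these numbers, which lowers them. Any reads of other transcripts in that stretch are included, which raises them. The numbers therefore bound that start's use in neither direction, and the intervals cover counting error only. The exons of Hif1a share 330 of 5896 annotated bases with an antisense gene (Gm15283) and 148 with a gene on the same strand (Gm49321). Strand use in the counting is not given in the sources used here, so reads of these stretches cannot be told apart.

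Epas1, the gene of the other alpha subunit (chromosome 17, 86753864 to 86833410, plus strand), was the lowest of the 10 genes per kilobase of exon in each group. It had 2.461, 2.406 and 2.391 CPM with the PD-L1 antibody, against 1.961, 3.416 and 3.708 CPM with the isotype antibody and 3.438, 3.535 and 2.299 CPM in untreated wells. The groups overlapped, and the level rested on 54.06 to 136.4 exonic read equivalents per library. The log2 fold change was -0.21 against the isotype antibody (95% interval -0.62 to 0.21, limma adjusted p = 0.427) and -0.24 against untreated wells (interval -0.66 to 0.17, limma adjusted p = 0.323; -0.18 without untreated 7), so a fall of up to 0.62 or 0.66 on the log2 scale lies within the intervals. For isotype antibody against untreated wells the value was -0.04 (limma adjusted p = 0.951), and 0.03 without untreated 7.

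Set against each other within a library, where the scaling between libraries plays no part, the 2 alpha genes stood further apart with the PD-L1 antibody. Coverage per exonic base of Hif1a was 167.5, 181.2 and 188.9 times that of Epas1 with the PD-L1 antibody, 44.44, 25.1 and 22.39 times with the isotype antibody and 23.36, 26.84 and 44.85 times in untreated wells. The log2 ratio differed by 2.61 between PD-L1 and isotype antibody wells and by 2.56 between PD-L1 antibody and untreated wells, without overlap. Both exact permutation tests over libraries (two-sided) gave p = 0.1, the smallest that 3 against 3 allow, and 0.15 after Benjamini-Hochberg adjustment over the 3 comparisons. Isotype antibody and untreated wells differed by -0.06 (exact permutation p = 0.7, adjusted 0.7). Without untreated 7 the differences were 2.37 (exact permutation p = 0.2) for the PD-L1 antibody and -0.25 (exact permutation p = 0.4) for the isotype antibody, each against untreated wells.

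Arnt, the partner subunit (chromosome 3, 95434390 to 95497239, plus strand), moved little. It had 47.73, 53.61 and 50.87 CPM with the PD-L1 antibody, against 43.37, 43.91 and 43.79 CPM with the isotype antibody and 42.62, 39.25 and 40.35 CPM in untreated wells. All 3 PD-L1 antibody libraries were above the other 6. The log2 fold change of 0.21 against the isotype antibody (SE 0.08, limma adjusted p = 0.0493) was just past the threshold, and leaving out any 1 library except untreated 7 ended the call (0.17 to 0.25, limma adjusted p 0.0521 to 0.17), as did 7 other alternatives. Against untreated wells it was 0.31 (SE 0.08, limma adjusted p = 0.00698; 0.34 without untreated 7), and the call was lost only with scaling by total reads (0.16, limma adjusted p = 0.123). Isotype antibody and untreated wells differed by 0.1 (limma adjusted p = 0.582; 0.13 without untreated 7).

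**Figure D2:**
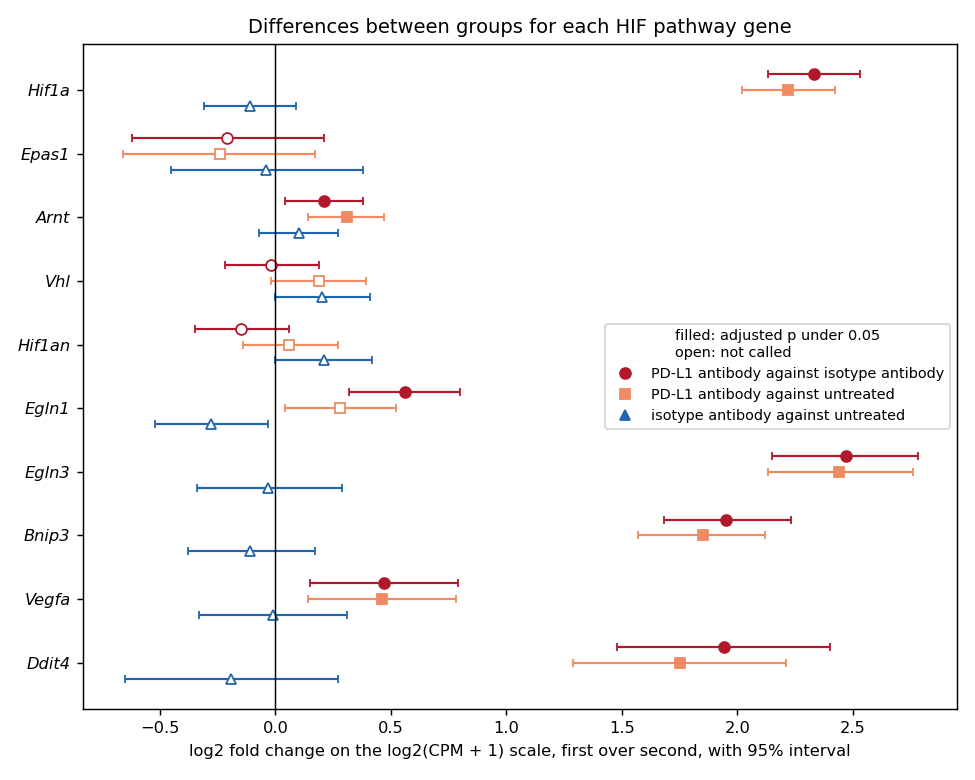
Log2 fold change of each gene on the log2(CPM + 1) scale with its 95% interval, for PD-L1 antibody against isotype antibody, PD-L1 antibody against untreated and isotype antibody against untreated (n = 3 libraries per group). Filled symbols are differences with an adjusted p under 0.05: Hif1a, Egln3, Bnip3 and Ddit4 lie between 1.75 and 2.47 in both comparisons of the PD-L1 antibody, and no symbol is filled between isotype antibody and untreated wells.

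Among the regulators, the prolyl hydroxylase genes differed in size of change. Egln3 encodes PHD3, an enzyme whose own gene is a classical HIF target (chromosome 12, 54178981 to 54203874, minus strand). It had 19.15, 16.98 and 19.46 CPM with the PD-L1 antibody, against 3.29, 2.353 and 2.045 CPM with the isotype antibody and 2.838, 2.592 and 2.349 CPM in untreated wells. The PD-L1 antibody libraries stood far above the other 6, which overlapped one another. Its mean was 7.23 times that with the isotype antibody, the largest ratio of the 10 genes, and the log2 fold change was 2.47 (SE 0.14, limma adjusted p = 4.23e-07), with 2.44 against untreated wells (limma adjusted p = 4.51e-07; 2.49 without untreated 7). The low levels rested on 61.55 to 104.4 exonic read equivalents per isotype or untreated library, and the log2(CPM + 1) scale understates changes at such levels. From untreated wells the isotype antibody wells differed by -0.03 (limma adjusted p = 0.956; 0.02 without untreated 7).

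Egln1 encodes PHD2, the main oxygen-sensing hydroxylase (chromosome 8, 124908587 to 124949254, minus strand). It had 74.15, 69.34 and 79.89 CPM with the PD-L1 antibody, against 50.52, 53.63 and 46.57 CPM with the isotype antibody and 51.89, 70.19 and 62.33 CPM in untreated wells. The PD-L1 antibody libraries were above all isotype antibody libraries but overlapped untreated 8. Against the isotype antibody the log2 fold change was 0.56 (SE 0.11, 95% interval 0.32 to 0.8, limma adjusted p = 0.00232). Against untreated wells it was 0.28 (limma adjusted p = 0.0607), with a call only when untreated 8 was left out (0.38, limma adjusted p = 0.0241), and 0.16 without untreated 7. The isotype antibody wells differed from the untreated ones by -0.28 on the log2 scale (limma adjusted p = 0.363), and without untreated 7 that difference was called (-0.39, limma adjusted p = 0.0143). The latter call is descriptive, because untreated 7 was picked from these same data.

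Coverage per base of Egln3 was 0.34, 0.3229 and 0.3204 times that of Egln1 with the PD-L1 antibody, against 0.08609, 0.05736 and 0.05817 times with the isotype antibody and 0.07221, 0.04849 and 0.04951 times in untreated wells. This pair was set side by side after its values were seen, so the ratios are given without a test. Egln1 was the more abundant transcript of the pair in every library.

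Vhl and Hif1an, which act on the alpha subunits as the substrate receptor of the ubiquitin ligase and as the asparaginyl hydroxylase, were called in neither comparison of the PD-L1 antibody with all libraries and TMM scaling. Vhl (chromosome 6, 113624021 to 113631633, plus strand) had 43.0, 41.26 and 40.23 CPM with the PD-L1 antibody, against 42.99, 43.91 and 39.05 CPM with the isotype antibody and 40.94, 35.55 and 32.88 CPM in untreated wells. Its log2 fold change was -0.02 against the isotype antibody (95% interval -0.22 to 0.19, limma adjusted p = 0.917) and 0.19 against untreated wells (interval -0.02 to 0.39, limma adjusted p = 0.13). Without untreated 7, Vhl was called higher than in untreated wells both with the PD-L1 antibody (0.27, limma adjusted p = 0.0181) and with the isotype antibody (0.29, limma adjusted p = 0.0349). Both calls are descriptive, because untreated 7 was picked from these same data. With all libraries the difference between isotype antibody and untreated wells was 0.2 (limma adjusted p = 0.398).

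Hif1an (chromosome 19, 44562854 to 44576274, plus strand) had 51.34, 47.86 and 52.76 CPM with the PD-L1 antibody, against 55.14, 54.69 and 58.49 CPM with the isotype antibody and 55.85, 45.62 and 44.38 CPM in untreated wells. All PD-L1 antibody libraries were below all isotype antibody libraries, and the untreated libraries overlapped both groups. On the log2 scale it differed by -0.15 against the isotype antibody (95% interval -0.35 to 0.06, limma adjusted p = 0.264), called only with scaling by total reads (-0.32, limma adjusted p = 0.0307). Against untreated wells it was 0.06 (limma adjusted p = 0.616), with the sign turned under total-read scaling (-0.08) and upper-quartile scaling (-0.01), and 0.16 without untreated 7. The isotype antibody against untreated wells gave 0.21 (limma adjusted p = 0.393), called without untreated 7 (0.31, limma adjusted p = 0.017), a call that is descriptive for the same reason as those of Vhl.

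Of the 3 target genes, Bnip3 and Ddit4 rose strongly and Vegfa by less. Bnip3 encodes a mitochondrial outer-membrane protein that marks mitochondria for autophagy (chromosome 7, 138890836 to 138909506, minus strand). Its level was 52.51, 57.97 and 52.35 CPM with the PD-L1 antibody, against 14.58, 14.42 and 11.1 CPM with the isotype antibody and 12.35, 15.12 and 15.87 CPM in untreated wells. The PD-L1 antibody libraries were more than 3 times the highest of the others. This was a log2 fold change of 1.95 against the isotype antibody (SE 0.13, limma adjusted p = 8.8e-07) and 1.85 against untreated wells (SE 0.13, limma adjusted p = 1.28e-06; 1.74 without untreated 7), and -0.11 between isotype antibody and untreated wells (limma adjusted p = 0.732; -0.21 without untreated 7). Its exons share 504 of 2265 annotated bases with an antisense gene (Gm45507), whose reads cannot be told apart from those of Bnip3.

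Ddit4 encodes REDD1, an inhibitor of the growth kinase complex mTORC1 (chromosome 10, 59949675 to 59951770, minus strand). It had 32.13, 26.34 and 37.39 CPM with the PD-L1 antibody, against 9.174, 8.654 and 5.29 CPM with the isotype antibody and 9.955, 9.965 and 6.576 CPM in untreated wells. The groups with and without the PD-L1 antibody did not overlap, although the spread was wider than for Bnip3. Its log2 fold change was 1.94 (SE 0.21, 95% interval 1.48 to 2.4, limma adjusted p = 3.72e-05) against the isotype antibody and 1.75 (SE 0.21, limma adjusted p = 6.95e-05; 1.84 without untreated 7) against untreated wells. For isotype antibody against untreated wells the value was -0.19 (limma adjusted p = 0.719; -0.10 without untreated 7).

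Vegfa, the gene of the main angiogenic growth factor VEGF-A (chromosome 17, 46016993 to 46032377, minus strand), had 100.3, 87.29 and 102.1 CPM with the PD-L1 antibody, against 53.05, 85.55 and 72.56 CPM with the isotype antibody and 74.72, 69.11 and 65.56 CPM in untreated wells. The lowest PD-L1 antibody library was only just above isotype antibody 5. Vegfa had a log2 fold change of 0.47 (SE 0.15, 95% interval 0.15 to 0.79, limma adjusted p = 0.0251) against the isotype antibody and 0.46 (SE 0.15, limma adjusted p = 0.0249; 0.51 without untreated 7) against untreated wells. The first call was lost without PD-L1 antibody 1 (0.45, limma adjusted p = 0.0797), PD-L1 antibody 3 (0.43, limma adjusted p = 0.0818) or isotype antibody 4 (0.28, limma adjusted p = 0.0753), and the second without PD-L1 antibody 1 (0.43), PD-L1 antibody 3 (0.42), untreated 8 (0.45) or untreated 9 (0.42), with limma adjusted p between 0.0635 and 0.0799. Total-read scaling ended both calls (0.30 and 0.31). Isotype antibody and untreated wells differed by -0.01 (limma adjusted p = 0.976; 0.04 without untreated 7).

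Transcripts of Vegfa differ in alternative exons that set how tightly the protein binds heparin and matrix. The exon of 72 bases, which encodes a run of basic residues, is shown in capitals because its use separates the transcript used here from shorter forms (chr17:46022277-46022348, minus strand, GENCODE M21 on GRCm38). It is preceded by the last 10 bases of the exon before it and followed by the next exon of 132 bases (chr17:46020991-46021122), which the shortest form also lacks.
Vegfa exons: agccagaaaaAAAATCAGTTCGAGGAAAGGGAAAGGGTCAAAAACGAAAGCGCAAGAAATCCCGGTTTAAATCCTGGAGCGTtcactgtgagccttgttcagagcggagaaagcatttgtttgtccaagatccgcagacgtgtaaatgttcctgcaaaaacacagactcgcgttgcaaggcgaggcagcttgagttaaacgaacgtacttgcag
Coverage of the 72-base exon was 3.89 ± 1.41% in PD-L1 antibody wells, 4.64 ± 2.63% in isotype antibody wells and 3.03 ± 1.42% in untreated wells (SD, n = 3), relative to the coverage of the transcript without either exon. The 132-base exon was covered at 50.1 ± 12.8% in PD-L1 antibody wells, 43.4 ± 17.2% in isotype antibody wells and 36.2 ± 5.8% in untreated wells. In Arnt, an alternative exon of 45 bases was covered at 66.3 ± 15.6% (PD-L1 antibody), 51.8 ± 13.4% (isotype antibody) and 57.2 ± 15.4% (untreated) of the transcript without it. Values overlapped between groups in each case, and the 9 exact permutation tests over libraries (two-sided) gave p from 0.3 to 0.6, all 0.6 after Benjamini-Hochberg adjustment. With 3 against 3 libraries these exact tests cannot go below 0.1, so no difference of any size could have been called. The shares also come from differences in coverage, as low as 1.27 reads per base for the 72-base exon.

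**Figure D3:**
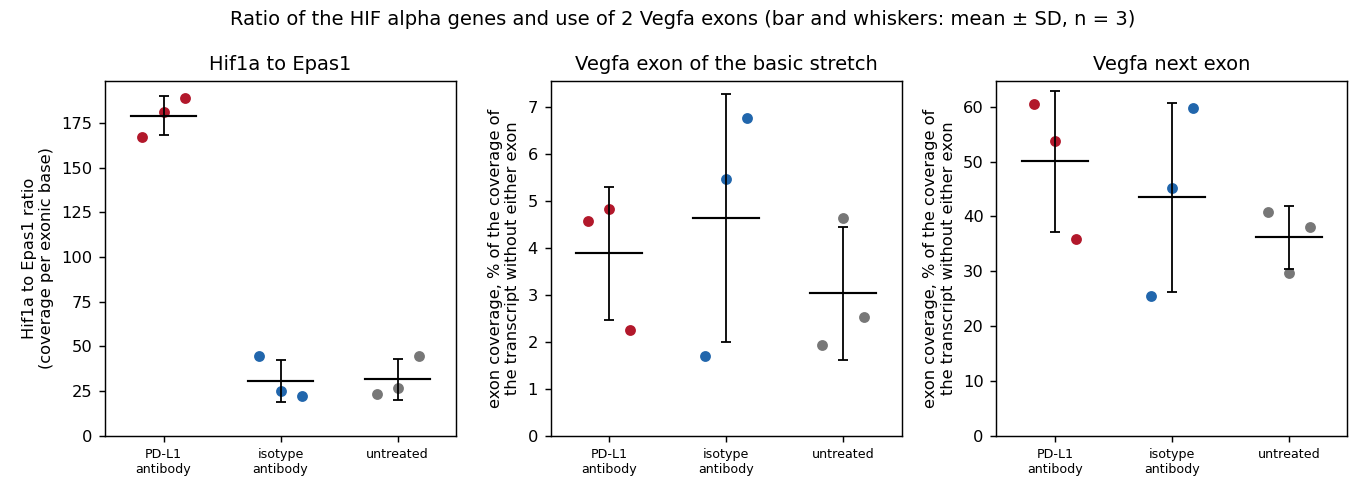
Left, ratio of Hif1a to Epas1 coverage per exonic base in each library. Middle and right, coverage of the 72-base and the 132-base Vegfa exon as percent of the transcript without either (points are libraries, bars and whiskers mean ± SD, n = 3). The ratio lies between 167.5 and 188.9 with the PD-L1 antibody and at 44.85 or less elsewhere, while the exon shares overlap between groups.

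The order of the 10 genes by level per length (mean CPM per kilobase of exon) also differed between groups. With the PD-L1 antibody it was Hif1a 81.13, Bnip3 30.91, Vegfa 27.35, Egln1 21.13, Ddit4 18.96, Vhl 15.2, Arnt 11.61, Hif1an 8.183, Egln3 6.924 and Epas1 0.452 CPM per kilobase. Only the neighbours Egln1 and Ddit4, and Ddit4 and Vhl, overlapped in their libraries. With the isotype antibody Vegfa led at 19.93, followed by Hif1a at 15.91, Vhl at 15.38 and Egln1 at 14.26 CPM per kilobase, neighbours that overlapped. Arnt at 10.0, Hif1an at 9.064, Bnip3 at 7.613, Ddit4 at 4.573, Egln3 at 0.9577 and Epas1 at 0.5659 CPM per kilobase came next without overlap. In untreated wells the order was Vegfa 19.77, Egln1 17.44, Hif1a 17.33, Vhl 13.35, Arnt 9.325, Bnip3 8.227, Hif1an 7.854, Ddit4 5.241, Egln3 0.969 and Epas1 0.5775 CPM per kilobase. There the first 3 overlapped as neighbours, and so did Arnt, Bnip3 and Hif1an.

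Of 9877 tested genes with a mean of at least 5 CPM, those whose log2(CPM + 1) followed Hif1a most closely over the 9 libraries were Cd38, an NAD-consuming surface enzyme (Pearson r = 0.9964), Socs3, a feedback inhibitor of cytokine signalling (0.9961), and Siglece, an inhibitory sialic acid receptor (0.9957). For Egln3 they were Il1b (0.9984), the formyl peptide receptor gene Fpr2 (0.9971) and the haptoglobin gene Hp (0.9971). The libraries form 2 clusters, with and without the PD-L1 antibody, so these correlations describe mostly that gap and carry no p. Siglece had 119.3 ± 15.2 CPM with the PD-L1 antibody, 4.375 ± 1.64 CPM with the isotype antibody and 5.277 ± 1.11 CPM in untreated wells. Hp had 141.7 ± 8.23 CPM with the PD-L1 antibody, 23.59 ± 3.78 CPM with the isotype antibody and 20.4 ± 1.7 CPM in untreated wells (SD, n = 3).

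Other genes of the pathway were followed as lists, described by counts and by the median log2 fold change, beside the median of all genes tested (-0.015 against the isotype antibody and -0.012 against untreated wells). Rises and falls of listed genes are on the log2(CPM + 1) scale. That scale understates changes of genes with low levels in a group, such as Npas2, Arg1, Ak4 and Vegfc below. The shares of all genes called, 18.2% higher and 18.2% lower against the isotype antibody and 22.0% higher and 20.5% lower against untreated wells, are the background of each count with all libraries. Without untreated 7 calls rose among all genes. Against untreated wells 3447 were then higher and 3326 lower, in place of 3017 and 2819. Against the isotype antibody 2978 were higher and 3051 lower, in place of 2497 and 2501. Of 20 tested regulators and cofactors of HIF, 3 were called higher and 4 lower against the isotype antibody, with a median of 0.08 (-0.06 with total-read scaling). In all 7 of 20 were called, a share near the 36.4% of all genes. Rora, a nuclear receptor gene, fell by 1.07 on the log2 scale (12.61 ± 1.35 CPM with the PD-L1 antibody, against 27.65 ± 4.08 CPM with the isotype antibody). Cited2, which competes with HIF-1alpha for the coactivators CBP and p300, fell by 0.95 (104 ± 17.5 CPM with the PD-L1 antibody, against 199.8 ± 16 CPM with the isotype antibody). Npas2, a clock factor of the same protein family, fell by 1.71 (0.5229 CPM with the PD-L1 antibody, against 4.121 CPM with the isotype antibody), and Elob, the elongin B subunit of the VHL ligase, rose by 0.48 (limma adjusted p 5.07e-05 to 0.000638 for the 4 genes). Against untreated wells 6 were called higher and 4 lower (6 and 5 without untreated 7), with 3 higher without PD-L1 antibody 3, untreated 8 or untreated 9, and 3 higher with total-read scaling. Without untreated 7 the rises against the isotype antibody numbered 5.

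Most glycolytic targets of HIF were called higher. Of 23 tested, 18 were called higher and 2 lower against the isotype antibody (median 1.45, and 1.27 with total-read scaling), and 19 higher and 2 lower against untreated wells (median 1.53). Without untreated 7 the counts against untreated wells were again 19 and 2 (median 1.64). The glucose transporter gene Slc2a1 rose by 2.42, to 202.7, 190.9 and 215.4 CPM with the PD-L1 antibody, against 35.21, 37.31 and 39.13 CPM with the isotype antibody. The lactate exporter gene Slc16a3 rose by 2.75, the phosphofructokinase gene Pfkl by 2.31 and the triosephosphate isomerase gene Tpi1 by 1.73 (limma adjusted p 7.72e-09 to 5.78e-08). The 2 that fell were Slc2a3, a second glucose transporter gene (-0.91), and Pfkfb4 (-0.37), named after their values were seen. The falls numbered 1 without PD-L1 antibody 1, 2 or 3, or isotype antibody 4 or 5. Glycolytic genes such as Gapdh have near-identical pseudogene copies, so their counts are uncertain to that extent.

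Of 42 other tested HIF targets, 22 were called higher and 8 lower against the isotype antibody (median 0.4, and 0.24 with total-read scaling). Against untreated wells 20 were called higher and 7 lower (median 0.48, and 0.36 with total-read scaling). Without untreated 7 the counts against untreated wells were 22 and 10 (median 0.51). Arg1, the gene of arginase 1, rose by 4.98 on the log2(CPM + 1) scale, less than the ratio of its CPM values. It had 30.09, 47.06 and 29.68 CPM in PD-L1 antibody wells, against 0.2214, 0.1139 and 0.08181 CPM in isotype antibody wells. Ak4, a mitochondrial adenylate kinase gene, rose by 3.12 (14.75 ± 0.987 CPM with the PD-L1 antibody, against 0.8265 ± 0.275 CPM with the isotype antibody), and Il1b, the interleukin-1 beta gene, by 4.14. Bhlhe41, a transcriptional repressor gene, fell by 1.56 (63.51 ± 0.547 CPM with the PD-L1 antibody, against 189.5 ± 11 CPM with the isotype antibody). All 4 had a limma adjusted p of 1.28e-08 to 5.85e-08.

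**Figure D4:**
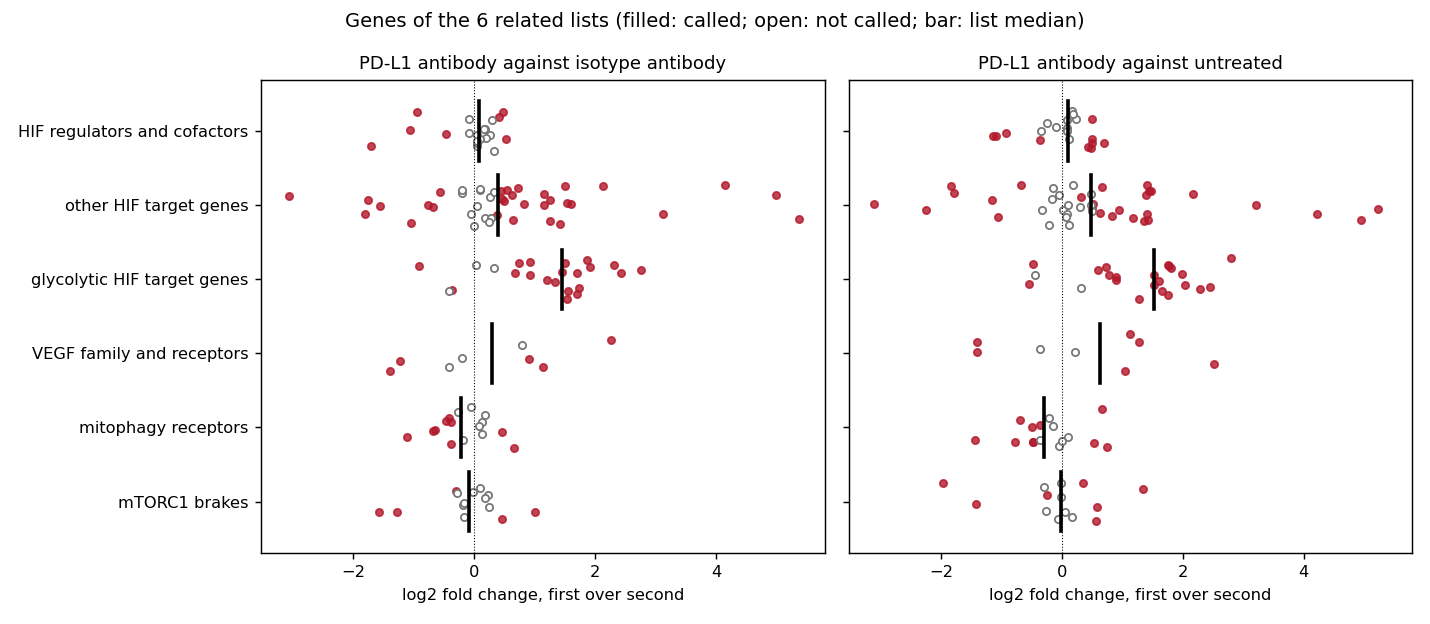
Log2 fold change of every tested gene in the 6 related lists, PD-L1 antibody against isotype antibody on the left and against untreated wells on the right (filled points passed an adjusted p of 0.05, black bars are list medians). The median of the glycolytic targets is 1.45 and 1.53, while those of the HIF regulators are 0.08 and 0.1 (-0.06 and -0.04 with total-read scaling).

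The relatives of the 3 targets moved in both directions. Of 8 tested genes of the VEGF family and its receptors, 3 were called higher and 2 lower against the isotype antibody (median 0.29). The sign of that median depends on the filter: it was -0.07 over 9 genes without the filter and -0.45 over 5 genes with a minimum mean of 5 CPM, where 1 gene was called higher. The lymphatic growth factor gene Vegfc rose by 2.26 (11.31 ± 0.559 CPM with the PD-L1 antibody, against 1.637 ± 0.778 CPM with the isotype antibody), Pgf, the placental growth factor gene, by 1.13 and the co-receptor gene Nrp2 by 0.9, while the co-receptor gene Nrp1 fell by 1.4 (limma adjusted p 3.88e-06 to 0.000211). Against untreated wells 4 were called higher and 2 lower (median 0.63), as without untreated 7 (median 0.8), and 2 were called higher with a minimum mean of 5 CPM (median 0.18).

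Of 16 tested genes of mitophagy receptors and their partners, listed beside Bnip3, 2 were called higher and 7 lower against the isotype antibody (median -0.22, and -0.39 with total-read scaling), and 3 higher and 7 lower against untreated wells (3 and 10 without untreated 7). With total-read scaling 1 was called higher against the isotype antibody. Pink1, the kinase that starts parkin-dependent mitophagy, fell by 1.12 (57.41, 52.89 and 60.14 CPM with the PD-L1 antibody, against 128.0, 140.8 and 108.0 CPM with the isotype antibody). Gabarapl1 and Map1lc3b, of the autophagosome-coating protein family, fell by 0.68 and 0.39, and the autophagy receptor gene Tax1bp1 rose by 0.66 (limma adjusted p 0.00014 to 0.00357 for the 4 genes). Of 14 tested brakes of mTORC1, listed beside Ddit4, 2 were called higher and 3 lower against the isotype antibody (median -0.09), so that 5 of 14 were called, a share near the 36.4% of all genes. Against untreated wells 4 were called higher and 3 lower (5 and 3 without untreated 7), with 2 higher without untreated 8 or 9. The balance depended on the scaling: total-read scaling gave 1 higher and 5 lower against untreated wells and 5 lower against the isotype antibody, and upper-quartile scaling gave 5 lower against untreated wells. Deptor, an mTOR-binding inhibitor gene, fell by 1.28 and the sestrin gene Sesn1 by 1.58, whereas the stress-induced Sesn2 and Trib3 rose by 0.45 and 1.01 (limma adjusted p 0.000112 to 0.00334). Between isotype antibody and untreated wells no gene of the 6 lists was called with all libraries (limma). At an unadjusted p under 0.05 (limma) 7 of their 122 tested genes were higher and 4 lower, where 12.7% of all genes tested were under that p. Without untreated 7 calls appeared in every list, among them 4 of 23 glycolytic targets higher and 5 of 42 other HIF targets lower with the isotype antibody. That fit called 2294 of all genes tested, 1328 higher and 966 lower, so these counts are not particular to the lists.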

How the data were processed

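Poly(A)-selected RNA of 9 macrophage samples was sequenced as paired reads of 150 bases. STAR and Partek are named per the submitters' processing notes; their versions and steps, the genome build, the annotation and strand use are not given in the sources used here. Positions matched GRCm38. Per the file headers, the deposited files hold read counts, average coverage (the signal per exonic base), percent of bases covered (not used for a result) and total exon length (entered as a score) for RefSeq transcripts. The deposited read counts cover whole genomic spans, introns included, and isoforms of 1 span repeat them.

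The values tested were therefore exonic read equivalents (coverage times exon length over 150, rounded), which made up 68.0 to 70.9% of the reads over the same spans, for the transcript with the highest sum per symbol. The files list 35131 transcripts for 22376 genes, and edgeR's filterByExpr kept 13728 of these genes. TMM factors were 0.919 to 0.932 in PD-L1 antibody libraries and 1.009 to 1.063 in the others. Values of log2(CPM + 1) were fitted in limma with a trended variance over all 9 libraries, and p-values, two-sided, were Benjamini-Hochberg adjusted over all genes (threshold 0.05). This departs from a count model on the deposited counts, which is among the alternatives. The 10 genes, the lists and the tests were chosen with earlier results of these data known. From each list the 4 tested genes with the lowest p against the isotype antibody were named; all 10 pathway genes were named in each comparison. Genes of like pattern were the 3 with the highest Pearson correlation. Alternatives were other scalings, filters, transcripts, tools (edgeR, DESeq2, limma-voom), a pseudocount of 0.25, each library left out in turn, fits of 2 groups only and a threshold of 0.01. The fit was also run on simulated data in which only a small part of the genes changed. That setting is unlike the many calls here, so it does not test the scaling for such data. Reads carry no molecular identifiers, so counting errors are lower bounds. Software was R 4.3.3 (limma 3.58.1, edgeR 4.0.16, DESeq2 1.42.0) and Python 3.11.15 (pandas 2.3.3, numpy 2.4.6, scipy 1.17.1, matplotlib 3.10.9).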

Additional observations from a re-analysis of the deposited data

How the results depend on the processing

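Under 23 alternatives for each gene, of which 9 left out 1 library each, the calls of Hif1a, Egln3, Bnip3 and Ddit4 in both comparisons of the PD-L1 antibody and of Egln1 against the isotype antibody were kept. Their log2 fold changes against the isotype antibody ran from 2.16 to 2.37 (Hif1a), 2.14 to 2.89 (Egln3), 1.78 to 2.04 (Bnip3), 1.72 to 2.11 (Ddit4) and 0.38 to 0.61 (Egln1). Arnt lost its call against the isotype antibody under 15 alternatives. Over all alternatives, kept calls included, its value ran from 0.04 to 0.25 (adjusted p 0.0274 to 0.744 by limma, limma-voom, edgeR or DESeq2). Vegfa lost its call under 7 in each comparison of the PD-L1 antibody. Over all alternatives it ran from 0.28 to 0.62 against the isotype antibody and from 0.31 to 0.53 against untreated wells. Values near 0 changed sign: Hif1an against untreated wells (PD-L1 antibody) was -0.08 with total-read and -0.01 with upper-quartile scaling. In the comparison of isotype antibody with untreated wells, Vegfa was 0.01 (total-read scaling, and edgeR and DESeq2 on exonic reads), 0.04 (limma on deposited reads) and 0.07 (edgeR on deposited reads), Egln3 0.13 (limma on deposited reads) and 0.19 (edgeR on deposited reads), and the log2 ratio of Hif1a to Epas1 differed by 0.05 with deposited reads per span length. The cause was not tested.

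Leaving out 1 library gave ranges of -0.07 to 0.01 for Vhl against the isotype antibody (PD-L1 antibody), and between isotype antibody and untreated wells of -0.18 to 0.17 for Epas1, -0.16 to 0.18 for Vegfa, -0.17 to 0.08 for Egln3, -0.21 to 0.01 for Bnip3, -0.36 to 0.03 for Ddit4 and -0.36 to 0.22 for the Hif1a to Epas1 log2 ratio. Between isotype antibody and untreated wells the genes called ranged from 0 to 2294 and the pathway genes called from 0 to 3, the higher values being those without untreated 7. That comparison called 1 gene with all libraries (1744 at an unadjusted p under 0.05), 2 without the filter, 2 with limma and 2 with edgeR on deposited reads, 13 with DESeq2, and 0 with edgeR or limma-voom on exonic reads, with 2 groups only, or at a threshold of 0.01. At that threshold 3224 genes were called for the PD-L1 antibody against the isotype antibody and 3822 against untreated wells, in place of 4998 and 5836. Epas1 had no value with a filter of 5 CPM, which removed it. No paired analysis was possible because the groups share no replicate numbers. With 3 libraries per group, exact tests over libraries cannot go below 0.1. Depth limits Epas1 and Egln3 most.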
